A study of Mus musculus with 2 samples.

Results

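The DNA repair gene families are described here as 81 of the 21887 protein-coding mouse genes in a RefSeq table of the genome assembly GRCm38.p6, whose chromosomes are those of the build mm10. They were chosen by gene symbol alone: Fanc followed by a letter, Rad followed by digits, Xrcc, Ercc, Msh, Mlh, Lig or Parp followed by a digit, and Xpa, Xpc, Brca1, Brca2, Atm, Atr, Nbn, Mre11a, Trp53bp1, Mdc1 and Rpa1 to Rpa3. What was measured is acetylation of histone H4 at lysine 16 (H4K16ac), mapped by CUT&Tag, in which an antibody brings a transposase to the modified nucleosomes and the neighbouring DNA is tagged and sequenced. The cells were primary macrophages derived from mouse bone marrow with the growth factor M-CSF (20 ng/ml). One group, labelled WT, was wild type, and the other, labelled KAT8-cKO, lacked the acetyltransferase KAT8. Both groups received R848, a small-molecule agonist of the receptor TLR7, at 100 ng/ml for 2 h, so neither shows untreated cells. Each group is 1 library, and no source used here gives the Cre driver, the extent of the deletion, or the age, strain or number of the mice. Without replicates, a difference reported here is one between 2 libraries, and no test was made.

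Repair pathways divide the work by lesion. Nucleotide excision repair cuts out bulky adducts, base excision and single-strand break repair deal with damaged bases and nicks, and mismatch repair corrects replication errors. The Fanconi anaemia pathway unhooks crosslinks between strands. Double-strand breaks are rejoined directly by non-homologous end joining or copied from a sister chromatid by homologous recombination, and kinases such as ATM and ATR signal that damage is present. H4K16ac is placed mainly by KAT8, loosens contacts between nucleosomes, and is found at the starts of active genes among other places. It has also been studied at DNA breaks, but the peaks described here concern the chromatin of the genes that encode repair proteins and not the repair of any lesion.

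The deposited lists held 58229 wild-type and 55149 KAT8-deficient peaks, of which 46.9% and 47.0% had a q-value under 0.05, so weak peaks are common in both. Fold and q come from the authors' peak calling, and they describe and rank peaks within a list. Values from both lists set side by side move with library depth and background, neither of which was analysed here, and do not measure a change in acetylation. In bulk chromatin, fewer cells carrying the mark and less of the mark per cell cannot be told apart. Of 6 genes that define macrophages, Spi1, Cebpa and Cd14 had a peak at a gene end in both lists, Csf1r and Adgre1 in the wild-type list alone and Itgam in the KAT8-deficient list alone. The highest fold among those 6 genes was 2.89, and a peak at a gene end is not a measure of its expression.

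The sequence upstream of 9 of these genes is shown because these genes carry the patterns described further on. Atm, Rad1 and Rpa3 start back to back with another gene and had strong peaks in both lists, and Rad23b had a strong peak with no such neighbour. Xrcc4 had its stronger peak in the KAT8-deficient list, Parp4 and Parp12 had a peak in the wild-type list alone, Xrcc5 in the KAT8-deficient list alone, and Ercc2 in neither. Each sequence comes from the RefSeq promoter table of GRCm38.p6, runs 5′ to 3′ in the direction of the gene up to the base before the annotated gene, and holds no base of the gene itself or of a neighbouring gene. Capitals mark the letters of 3 motifs on either strand. CCAAT is the box bound by the factor NF-Y, which reads ATTGG on the other strand. The core bound by SP factors is GGGCGG, which reads CCGCCC on the other strand. Proteins of the ETS family bind CCGGAAG.
Atm (chr9:53536829-53536888, minus strand): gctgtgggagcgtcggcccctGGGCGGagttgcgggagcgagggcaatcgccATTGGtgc
Rad1 (chr15:10485938-10486017, plus strand): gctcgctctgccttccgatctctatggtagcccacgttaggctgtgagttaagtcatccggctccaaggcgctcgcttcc
Rpa3 (chr6:8259142-8259287, minus strand): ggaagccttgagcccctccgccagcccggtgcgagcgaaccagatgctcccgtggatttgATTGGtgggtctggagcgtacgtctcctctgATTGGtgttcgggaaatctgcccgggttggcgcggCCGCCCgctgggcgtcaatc
Rad23b (chr4:55349842-55350041, plus strand): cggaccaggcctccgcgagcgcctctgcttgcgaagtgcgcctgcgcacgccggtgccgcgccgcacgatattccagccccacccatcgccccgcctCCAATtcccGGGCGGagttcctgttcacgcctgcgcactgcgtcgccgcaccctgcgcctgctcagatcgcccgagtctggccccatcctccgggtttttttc
Xrcc4 (chr13:90089609-90089666, minus strand): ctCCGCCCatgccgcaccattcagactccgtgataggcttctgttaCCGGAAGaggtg
Parp4 (chr14:56575490-56575618, plus strand): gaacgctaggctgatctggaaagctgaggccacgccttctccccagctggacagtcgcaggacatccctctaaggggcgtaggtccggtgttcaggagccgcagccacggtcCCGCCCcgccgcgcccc
Parp12 (chr6:39118350-39118549, minus strand): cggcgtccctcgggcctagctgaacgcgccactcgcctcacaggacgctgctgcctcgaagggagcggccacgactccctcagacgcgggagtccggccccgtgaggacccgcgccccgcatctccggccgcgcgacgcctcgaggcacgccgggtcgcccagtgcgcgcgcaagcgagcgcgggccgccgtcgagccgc
Xrcc5 (chr1:72307217-72307416, plus strand): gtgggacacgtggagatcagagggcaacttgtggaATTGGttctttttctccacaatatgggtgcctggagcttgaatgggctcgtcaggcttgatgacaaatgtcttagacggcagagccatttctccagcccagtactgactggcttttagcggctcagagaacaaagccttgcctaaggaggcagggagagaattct
Ercc2 (chr7:19381817-19382016, plus strand): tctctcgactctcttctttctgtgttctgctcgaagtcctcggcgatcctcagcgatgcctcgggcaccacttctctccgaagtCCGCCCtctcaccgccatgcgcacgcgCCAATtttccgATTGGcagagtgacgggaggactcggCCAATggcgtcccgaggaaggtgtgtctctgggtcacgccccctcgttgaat
All 60 bases of Atm, 80 of Rad1, 146 of Rpa3, 200 of Rad23b and 58 of Xrcc4 lay under the strongest peak of each list. The 129 bases of Parp4 and the 200 of Parp12 lay wholly under the wild-type peak and under no KAT8-deficient peak. None of the bases shown for Xrcc5 lay under a peak, because its KAT8-deficient peak began at the first base of the gene, and none did for Ercc2. These sequences differ much in their content of CpG dinucleotides: Parp12 held 36 and Rad23b 26 in 200 bases, whereas Xrcc5 held 4 in the same length.

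A gene was counted as marked if at least 1 bp of a peak fell inside 1 kb on either side of its annotated start or end, and its strongest peak is the one with the highest −log10 q. Most of the repair genes were marked in both genotypes. In the wild-type list 62 of the 81 genes were marked, or 76.5% (95% Wilson interval 66.2 to 84.4), against 46.8% of all protein-coding genes. In the KAT8-deficient list 59 were marked, or 72.8% (62.3 to 81.3), against 43.3% of all genes. These intervals cover counting error over genes only and say nothing of variation between mice.

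A peak stood in both lists at 50 genes (61.7%, against 35.8% of all genes), in the wild-type list alone at 12 (14.8%, against 11.1%), in the KAT8-deficient list alone at 9 (11.1%, against 7.52%) and in neither at 10 (12.3%, against 45.7%). By this rule the shares found in a single list were nearer those of all genes than the share marked in both was. Under the stricter rules below, the gap was wider for some of the single-list shares. With peaks of q under 0.05 alone, a wild-type mark was counted at 53 genes (65.4%, against 36.8% of all genes) and a KAT8-deficient mark at 47 (58.0%, against 31.3%). In both lists 40 of the 81 were marked (49.4%, against 25.3% of all genes). In wild type alone 13 of the 81 were, against 11.6% of all genes. In KAT8-deficient cells alone 7 of the 81 were, against 6.01% of all genes. Among the strongest 20000 peaks of each list, 49 genes held a wild-type peak (60.5%, against 33.0% of all genes) and 46 a KAT8-deficient peak (56.8%, against 28.0%). They were 37 in both (45.7%, against 22.3%), 12 in wild type alone (14.8%, against 10.7%) and 9 in KAT8-deficient cells alone (11.1%, against 5.70%). A strict threshold, −log10 q at or above 5, was reached at 21 repair genes in wild type (25.9%, against 12.4% of all genes). In KAT8-deficient cells it was reached at 12 (14.8%, against 5.99%).

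**Figure D1:**
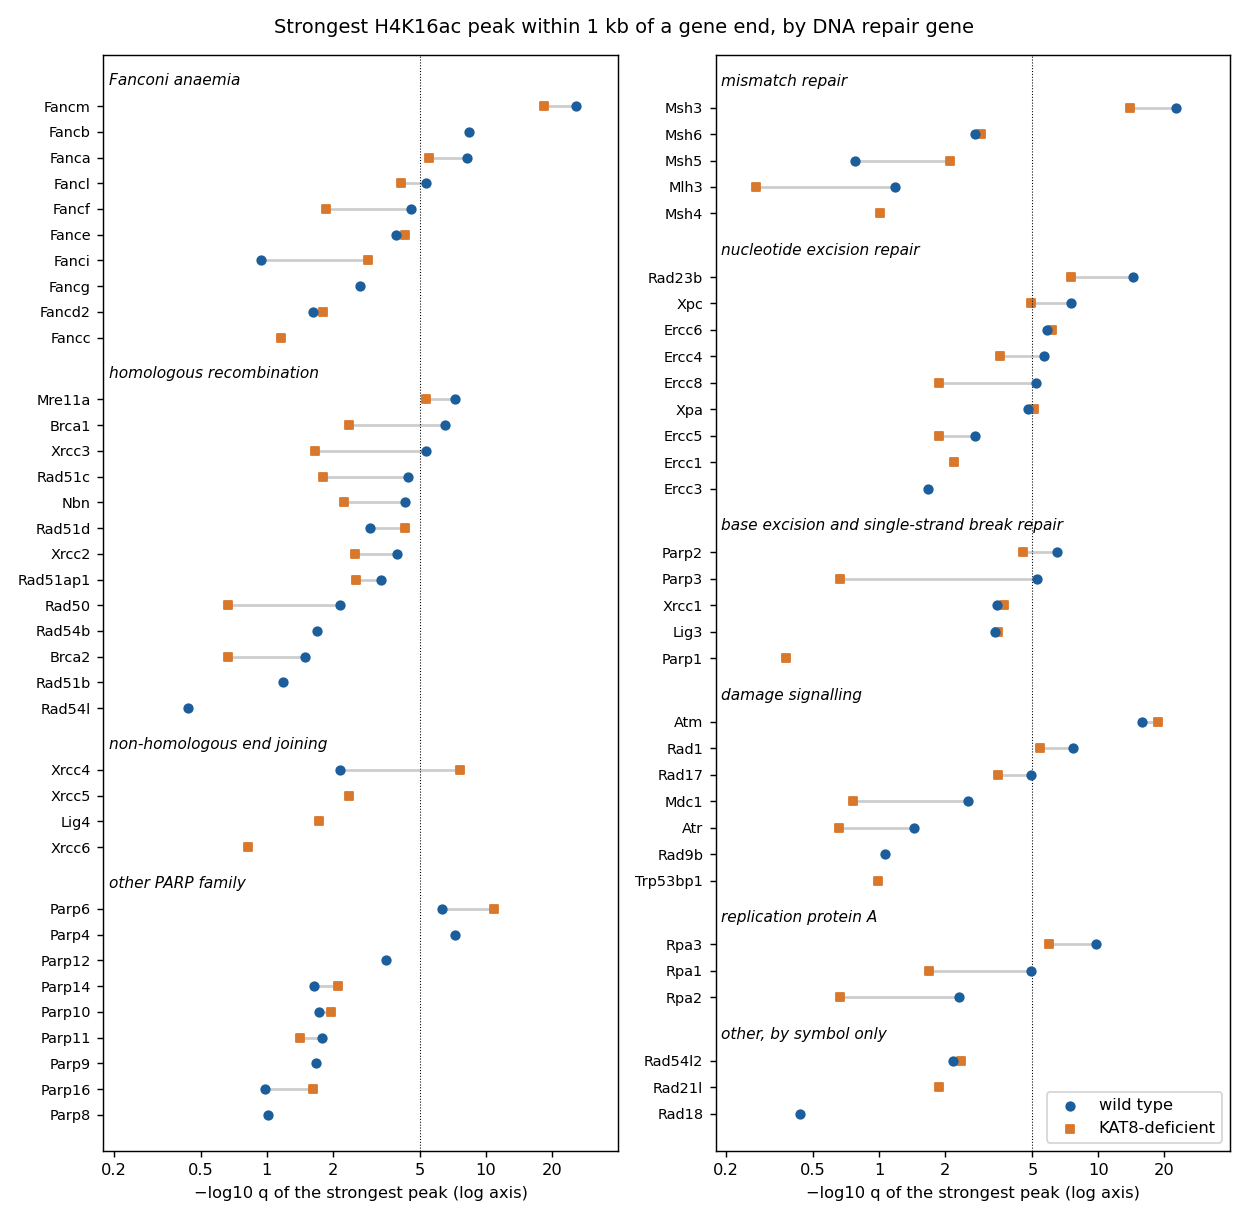
Each line is a repair gene with a peak in at least 1 list, grouped by pathway, with 3 genes not drawn. The x axis is −log10 q of its strongest peak on a log scale, blue circles are wild type, orange squares are KAT8-deficient, grey lines join the 2 values of a gene marked in both, and the dotted line is at 5. Fancm, Msh3, Atm and Rad23b stand farthest right in both lists among the genes of their groups, and 21 genes have a single symbol.

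Among the 50 genes marked in both lists, the wild-type values were more often the higher ones, as they were over all genes. The −log10 q was higher in wild type at 33 of the 50 (66%), against 69.8% of the 7827 protein-coding genes marked in both. The fold was higher in wild type at 38 (76%), against 70.4%. The median −log10 q of the 50 was 4.44 in wild type and 2.91 in KAT8-deficient cells, and the median fold was 3.84 and 3.42. Over all genes marked in both, the medians were 3.53 and 2.37 for −log10 q and 3.66 and 3.21 for fold. The repair genes therefore followed the direction seen over all genes. At 42 of the 50 genes the strongest peaks of the 2 lists overlapped (84%, against 82.7% over all genes), with a median of 122.5 bp between summits. Fancf, Atr, Mlh3, Msh5, Parp11, Parp14 and Rad54l2 were among those without overlap, so their paired values come from different peaks.

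**Figure D2:**
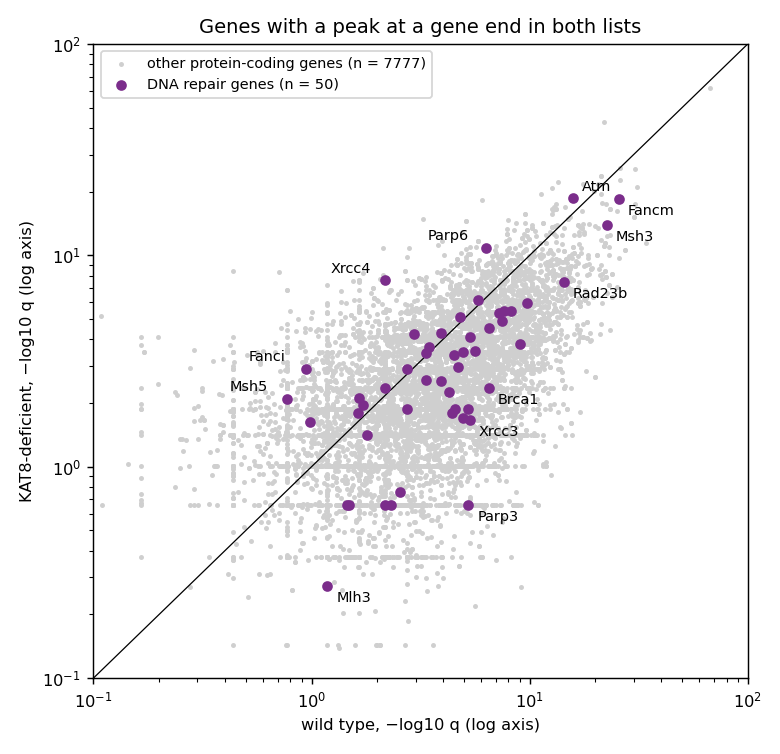
Each point is a protein-coding gene with a peak at a gene end in both lists, with −log10 q of its strongest peak in wild type on the x axis and in KAT8-deficient cells on the y axis, both on log scales. Purple points are the 50 repair genes, grey points the 7777 other genes, and on the diagonal both values are equal. Below the line lie 33 of the repair genes, and Xrcc4, Parp6, Fanci and Msh5 are among the 17 above it.

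The strongest peaks of the set were shared. Among the 8 highest −log10 q values of the wild-type list were those of Fancm (25.7, fold 7.22), Msh3 (22.5, fold 7.28), Atm (15.8, fold 5.89), Rad23b (14.3, fold 6.23), Rpa3 (9.70, fold 5.92), Fancb (8.38, fold 5.62) and Fanca (8.21, fold 5.19). In the KAT8-deficient list the 8 highest belonged to Atm (18.6, fold 6.40), Fancm (18.4, fold 6.07), Msh3 (13.9, fold 5.38), Parp6 (10.9, fold 5.98), Xrcc4 (7.61, fold 5.12), Rad23b (7.50, fold 4.52), Ercc6 (6.17, fold 4.44) and Rpa3 (5.98, fold 4.62). Fancm, Msh3, Atm, Rad23b and Rpa3 are thus in both groups of 8. Fancb is the 1 gene among the 16 entries with no peak in the other list. The first 3 in each list ranked above 99% of all peaks of that list.

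At the strict threshold 10 genes passed in both lists (12.3%, against 4.59% of all genes): Fanca, Fancm, Atm, Rad1, Mre11a, Msh3, Ercc6, Rad23b, Parp6 and Rpa3. A further 11 passed in wild type alone (13.6%, against 7.85% of all genes), and 9 of them had a weaker KAT8-deficient peak. Among those 9 were Fancl, Parp2, Parp3, Brca1, Xrcc3, Ercc4, Ercc8 and Xpc, while Fancb and Parp4 had no KAT8-deficient peak. Xrcc4 and Xpa passed in the KAT8-deficient list alone (2.47%, against 1.40% of all genes), and both had a wild-type peak below the threshold. Xpa, which helps verify damage in nucleotide excision repair, lay just on either side of it, with a −log10 q of 4.78 in wild type and 5.10 in KAT8-deficient cells.

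**Figure D3:**
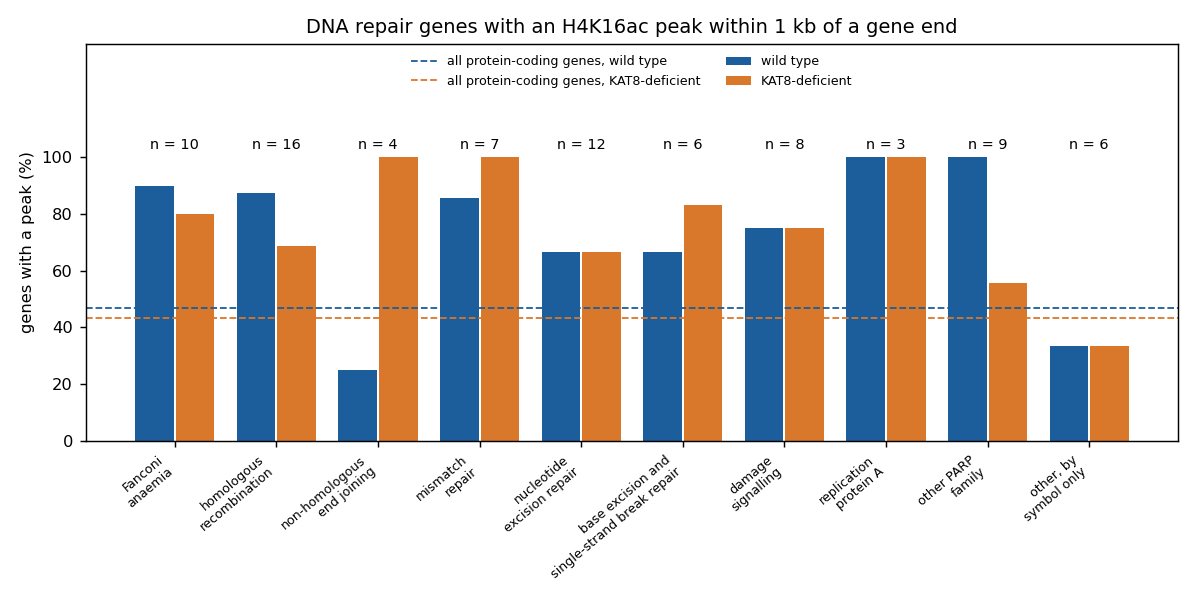
Bars give the percentage of genes of each repair pathway with a peak within 1 kb of a gene end, blue for wild type and orange for KAT8-deficient cells, with the number of genes above each pair. Dashed lines give the same percentage over all 21887 protein-coding genes. End joining stands at 25.0% in wild type and 100.0% in KAT8-deficient cells on 4 genes, and the other PARP genes at 100.0% and 55.6% on 9.

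In the Fanconi anaemia pathway, all 10 genes were marked in at least 1 list: 7 in both, Fancb and Fancg in wild type alone and Fancc in KAT8-deficient cells alone. Fancm encodes the translocase that brings the core complex to stalled forks. Its peak, at chr12:65073431-65074197 in wild type, was the strongest of all repair genes in that list and also lay within 1 kb of an end of Fkbp3, whose annotated 5′ end lies 172 bp away on the other strand. Of the core complex subunits, Fanca had folds of 5.19 and 4.24 (−log10 q 8.21 and 5.47), wild type first here and in the pairs that follow. Fance was nearly level, with 3.62 and 3.69 (3.91 and 4.27). Fancf showed 4.19 and 3.20 (4.53 and 1.87), from peaks that did not overlap. The KAT8-deficient peak that overlapped its wild-type peak had a fold of 2.99 (1.41). Fancl, the ubiquitin ligase of the complex, had folds of 4.64 and 4.06 (5.33 and 4.10). Fancd2 and Fanci form the pair that this ligase modifies, and both had the higher −log10 q in the KAT8-deficient list. Fancd2 was nearly level, with a −log10 q of 1.63 and 1.80, and its fold was higher in wild type (3.03 and 2.87). Fanci had folds of 2.56 and 3.41 (0.945 and 2.91).

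Fancb, a core complex gene on the X chromosome, had the strongest peak of any repair gene marked in a single list. Its wild-type peak at chrX:164980325-164980714 had a −log10 q of 8.38 at fold 5.62, and the nearest KAT8-deficient peak was 486457 bp away. Mospd2 begins on the opposite strand at the same place, and the peak lies at both genes. The X chromosome as a whole was less often marked than the genome: 18.5% of its 966 protein-coding genes in wild type and 11.9% in KAT8-deficient cells. The other repair gene on the X, Ercc6l, had its nearest peak 23369 bp away in wild type and 23330 bp in KAT8-deficient cells. Fancg, also a core subunit, had a wild-type fold of 3.27 (−log10 q 2.65), with the nearest KAT8-deficient peak to either gene end 1621 bp away.

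Homologous recombination genes were marked at 14 of 16 in wild type (87.5%, against 46.8% of all genes) and 11 in KAT8-deficient cells (68.8%, against 43.3%). No gene was marked in KAT8-deficient cells alone, where 7.52% of all genes were. Of the 11 marked in both, 10 had the higher −log10 q and the higher fold in wild type, with Rad51d the exception. Over all genes marked in both, 69.8% had the higher −log10 q in wild type and 70.4% the higher fold. The median −log10 q of these 11 was 4.27 in wild type and 2.37 in KAT8-deficient cells. The MRE11 complex, which senses and resects broken ends, was marked at all of its genes in both lists. Mre11a had folds of 4.58 and 3.94 (−log10 q 7.20 and 5.33), Nbn 4.04 and 3.22 (4.27 and 2.25) and Rad50 3.42 and 2.56 (2.17 and 0.663).

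Brca1 and Brca2 promote resection and strand exchange. Brca1 had a −log10 q of 6.50 in wild type and 2.37 in KAT8-deficient cells, with folds of 4.66 and 3.42. Its peaks began 200 bp (wild type) and 489 bp (KAT8-deficient) outside the annotated Brca1 gene, upstream of it. The annotated 5′ end of Nbr1 lies 152 bp from that of Brca1 on the other strand. Both peaks therefore began beyond that end, on the Nbr1 side, and covered no base of Brca1. Brca2 had weaker peaks, with a −log10 q of 1.49 and 0.663. Among the paralogues that assist strand exchange, Rad51c had 4.40 and 1.80, Xrcc2 3.94 and 2.54, and Xrcc3 5.32 and 1.67. Rad51d, another paralogue, went the other way, with 2.96 in wild type and 4.26 in KAT8-deficient cells. Rad51ap1, a cofactor of strand exchange, had 3.33 and 2.56. The translocase genes Rad54b (fold 2.92, −log10 q 1.70) and Rad54l (2.31, 0.436) and the paralogue Rad51b (2.93, 1.18) were marked in wild type alone. The peaks of Rad54l and Rad51b lay at the 3′ end of the gene. Rad52 and Rad51ap2 had no peak at a gene end in either list. These counts also depended on the definition. Within 1 kb of the starts in the RefSeq promoter table, which holds 10 of the 16 genes, wild type had 6 marked genes and KAT8-deficient cells 7, with 6 in both. Rad51b and Rad54l were unmarked there, and Rad52, whose start lies 976 bp from the gene end, was marked in KAT8-deficient cells alone by a weak peak (2.56, 0.663).

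Of the non-homologous end joining genes, 1 of 4 was marked at a gene end in wild type and all 4 in KAT8-deficient cells, but this too depended on which start was used. Xrcc4, the scaffold of the ligation step, was marked in both lists, with a fold of 3.42 (−log10 q 2.17) in wild type and 5.12 (7.61) in KAT8-deficient cells. It had the largest excess of KAT8-deficient −log10 q of the 50 genes marked in both, and it shares its start region with Tmem167, 59 bp away on the other strand. Lig4, the ligase that acts with it, had a KAT8-deficient peak (2.91, 1.74) inside the window. Its nearest wild-type peak, with a fold of 6.04, lay 1039 bp from the gene end, just outside the window. The RefSeq promoter table gives Lig4 another start, 1369 bp from the gene end. Within 1 kb of any start of that table Lig4 was marked in both lists, with a −log10 q of 12.6 in wild type and 5.97 in KAT8-deficient cells.

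Xrcc5 and Xrcc6 encode the subunits of the Ku ring that binds broken ends. Xrcc6 had a weak KAT8-deficient peak at its 3′ end (2.52, 0.820), beside Snu13. At its RefSeq start, which lies 28536 bp inside the annotated gene, it had a peak in both lists, with folds of 3.69 and 4.15 (4.47 and 5.53). Xrcc5 was marked in KAT8-deficient cells alone by both definitions, with fold 3.42 (−log10 q 2.37) at chr1:72307417-72307656, and the nearest wild-type peak was 2424 bp from the gene end. At starts, therefore, 3 of the 4 end joining genes were marked in both lists and 1 in KAT8-deficient cells alone.

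Mismatch repair genes were marked at 6 of 7 in wild type and at all 7 in KAT8-deficient cells. Msh3, which recognises small loops, had a fold of 7.28 in wild type, the highest of any repair gene, and 5.38 in KAT8-deficient cells. Its wild-type peak lay at chr13:92354375-92355372. Msh6, which recognises base mismatches, had a −log10 q of 2.73 and 2.91. Mlh3 (1.18 and 0.274) and Msh5 (0.774 and 2.10) had weak peaks at different ends of the gene in the 2 lists. Msh4, which acts with Msh5 in meiosis, was marked in KAT8-deficient cells alone (fold 2.72, −log10 q 1.01).

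In nucleotide excision repair 8 of 12 genes were marked in each list, and 7 in both. Xpc and Rad23b encode the damage sensor and its partner. Rad23b had the fourth strongest wild-type peak of the set, with folds of 6.23 and 4.52 (−log10 q 14.3 and 7.50) at chr4:55349496-55350559 in wild type. Xpc had folds of 4.69 and 3.98 (7.47 and 4.91), from a peak that also lies at Lsm3. Ercc6 and Ercc8 recognise polymerases stalled on damage. Ercc6 was level, with a fold of 4.45 and 4.44 (5.82 and 6.17), whereas Ercc8 had 4.57 and 3.16 (5.21 and 1.87).

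Ercc4 and Ercc5 encode the nucleases that cut on either side of the lesion, and both had the higher value in wild type. Their −log10 q values were 5.63 and 3.55 for Ercc4 and 2.73 and 1.87 for Ercc5. Ercc1, the partner of Ercc4, was marked in KAT8-deficient cells alone (fold 3.18, −log10 q 2.18), by a peak 984 bp from the gene end, just inside the window. Ercc3, a helicase of the transcription factor TFIIH, was marked in wild type alone (2.99, 1.67), and the nearest KAT8-deficient peak lay 1273 bp from a gene end. Ercc2, the other helicase of that factor, had no peak within 2135 bp in wild type or 5652 bp in KAT8-deficient cells. Ercc6l2 was marked in neither list at gene ends. At its RefSeq start it had a peak in both, with a −log10 q of 6.05 and 1.41.

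Of the 6 genes of base excision and single-strand break repair, 4 were marked in both lists. Xrcc1, the scaffold, and Lig3, the ligase it holds, were level between the lists. Xrcc1 had folds of 3.61 and 3.61 (−log10 q 3.46 and 3.69) and Lig3 3.67 and 3.70 (3.36 and 3.47). Parp2 and Parp3, which sense breaks, had the higher values in wild type. Parp2 had folds of 4.51 and 3.91 (6.49 and 4.55), and Parp3 3.64 and 2.28 (5.23 and 0.663). Parp1, the main sensor of nicks, was marked in KAT8-deficient cells alone by a weak peak (2.35, 0.374), and the nearest wild-type peak was 12791 bp from a gene end. Lig1, the ligase of lagging-strand synthesis, was unmarked at gene ends, with the nearest peaks 1087 bp away in wild type and 1285 bp in KAT8-deficient cells. At its RefSeq starts it was marked strongly in both lists, with folds of 5.03 and 5.65 (9.19 and 12.0).

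Damage signalling genes were marked at 6 of 8 in each list. Atm, the kinase that responds to double-strand breaks, was the 1 gene of the 5 marked in both whose −log10 q was higher in KAT8-deficient cells. It had folds of 5.89 and 6.40 (−log10 q 15.8 and 18.6), and its peaks at chr9:53536501-53537610 and chr9:53536472-53537568 cover nearly the same bases. The annotated 5′ end of Npat lies 61 bp from that of Atm on the other strand. Atr, the kinase of stalled forks, had weaker peaks, with 3.01 and 2.41 (1.45 and 0.657), which did not overlap and had summits 1166 bp apart. Rad1, a part of the checkpoint clamp, had 4.64 and 3.89 (7.63 and 5.43), and Rad17, which loads the clamp, 4.42 and 3.83 (4.94 and 3.49). Mdc1, the adaptor at modified chromatin, had 3.12 and 2.48 (2.54 and 0.761).

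Of the genes for RAD9 subunits of the clamp, Rad9b was marked in wild type alone (fold 2.80, −log10 q 1.07) and Rad9a in neither. Trp53bp1, which steers breaks towards end joining, was marked in KAT8-deficient cells alone at its 3′ end (2.55, 0.989). At its RefSeq start, 24947 bp inside the annotated gene, it was marked in wild type alone (3.18, 1.65). The 3 subunits of replication protein A, which coats single-stranded DNA, were each marked in both lists with the higher values in wild type. Rpa3 had folds of 5.92 and 4.62 (9.70 and 5.98), Rpa1 4.27 and 3.06 (4.94 and 1.69), and Rpa2 3.18 and 2.46 (2.31 and 0.663).

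The 9 PARP genes that lie outside single-strand break repair were all marked in wild type, and 5 of them in KAT8-deficient cells. Parp4, which belongs to the vault particle, had a wild-type peak with a fold of 4.58 (−log10 q 7.20) at chr14:56575433-56575716, and the nearest KAT8-deficient peak was 2761 bp from it. Parp12, an interferon-induced zinc finger PARP, had a wild-type fold of 3.43 (3.50). The nearest KAT8-deficient peak lay 29017 bp from that peak, and the nearest to either gene end was 2303 bp away. Parp9, also interferon-induced, had 2.91 (1.68) from a peak shared with its partner gene Dtx3l, and Parp8 had 2.76 (1.01). At its RefSeq start Parp8 was marked in both lists, with −log10 q values of 1.53 and 1.01.

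The 5 PARP genes marked in both went mostly the other way at gene ends, with 4 of 5 higher in the KAT8-deficient list in both −log10 q and fold. Over all genes marked in both, 69.8% had the higher −log10 q in wild type. Parp6 had folds of 4.70 and 5.98 (−log10 q 6.30 and 10.9). Parp10, Parp14 and Parp16 were weak in both lists, with −log10 q values of 1.73 and 1.96, 1.65 and 2.12, and 0.984 and 1.63. The peaks of Parp14 did not overlap, with summits 1811 bp apart. Parp11 had 1.79 and 1.41 at its gene ends, and 6.63 (fold 4.87) in wild type at a RefSeq start 6797 bp from the gene end. The RefSeq promoter table holds 6 of the 9 PARP genes, with 4 marked in both lists at starts. There Parp8 and Parp11 had the higher −log10 q in wild type, and Parp6 and Parp16 in KAT8-deficient cells. Another 6 genes were put into none of these pathways and are labelled as other, by symbol only, in the figures. Of these, Rad54l2 was marked in both (2.17 and 2.37). Rad18, a ubiquitin ligase of damage bypass, was marked in wild type alone (0.435) and Rad21l, a meiotic cohesin, in KAT8-deficient cells alone (1.87). Rad21, the mitotic cohesin subunit, Ercc6l and Fancd2os were unmarked, the last with a wild-type peak 1064 bp away.

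Many of the genes marked in a single list rested on weak peaks. Among the 12 genes marked in wild type alone, Rad9b, Rad51b, Rad54l, Parp8 and Rad18 had peaks that missed a q-value of 0.05. Fancc, Parp1, Trp53bp1, Msh4 and Xrcc6 did among the 9 marked in KAT8-deficient cells alone. Of all 62 genes marked in wild type, 14.5% rested on such a peak, against 21.3% of all genes marked in wild type. Of the 59 marked in KAT8-deficient cells, 20.3% did, against 27.7% of all. These shares take in genes marked in both lists. The share over all genes marked in a single list was not counted, so the genes named above have no such share beside them.

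Because an annotated gene can begin far from the start in use, the marks were also counted within 1 kb of the starts in the RefSeq promoter table, which holds 62 of the 81 genes. There wild type had 49 marked genes (79.0%, against 46.7%) and 47 in KAT8-deficient cells (75.8%, against 42.7%). In both lists 41 were (66.1%, against 36.4% of the 17492 genes in that table), 8 in wild type alone (12.9%, against 10.3%), 6 in KAT8-deficient cells alone (9.68%, against 6.29%) and 7 in neither. Of the 62 genes, 48 had the same status by both definitions and 14 had another. Fancc, marked at its 3′ end in KAT8-deficient cells by the first definition, had a peak in both lists at its start 65547 bp inside the gene (folds 4.24 and 3.42). Fancm was unmarked by the second, since its peak beside Fkbp3 lies outside 1 kb of the table's start. Of the 41 genes, 28 had the higher −log10 q in wild type (68.3%, against 70.2% over all genes marked in both).

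The peaks sat close to starts. Of the 62 repair genes with a known strand, 44 had a wild-type peak at the 5′ end and 3 at the 3′ end alone. Over all protein-coding genes with a known strand, the shares were 43.4% and 4.24%. In KAT8-deficient cells 43 of the 62 repair genes had a peak at the 5′ end and 4 at the 3′ end alone, where the shares over all such genes were 39.6% and 4.43%. The wild-type summit was within 500 bp of a RefSeq start at 41 of the 47 marked genes (87.2%, against 74.3% of all marked genes). In the KAT8-deficient list the same held for 37 of 47 (78.7%, against 71.2%). The median distance between summit and start, without its sign, was 145 bp in wild type and 203 bp in KAT8-deficient cells, where over all genes it was 186 and 224 bp.

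**Figure D4:**
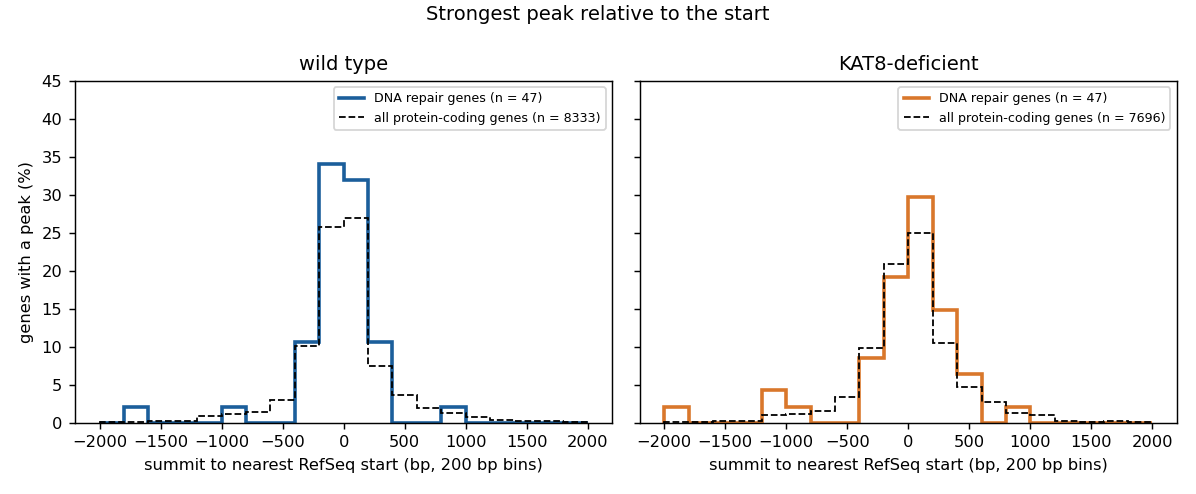
The x axis is the distance from the start to the summit of the strongest peak in 200 bp bins, negative values lying upstream, and the y axis is the percentage of marked genes with a known strand. Solid lines are repair genes (47 in each panel), dashed lines all protein-coding genes. Both sets are highest within 200 bp of the start in both panels, and peaks beyond 2000 bp are not drawn.

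Many repair genes begin back to back with a neighbour. The annotated 5′ end of a gene on the opposite strand lay within 1 kb of their own at 23 of the 62 repair genes of known strand (37.1%), against 10.3% of all genes. Genes with such a divergent start were marked at 22 of 23 in wild type (95.7%, against 85.8% of all divergent genes) and 19 of 23 in KAT8-deficient cells (82.6%, against 80.4%). Lig4, with its divergent partner Abhd13, was the divergent gene without a wild-type peak at a gene end. Without a divergent start, 25 of 39 were marked in wild type (64.1%, against 43.3%) and 28 of 39 in KAT8-deficient cells (71.8%, against 39.8%). A peak between divergent starts cannot be assigned to either gene, and most of the pairs were very close by their annotated 5′ ends, with 61 bp between Atm and Npat, 81 bp between Rad1 and Brix1 and between Mre11a and Ankrd49, and 58 bp between Rad9b and Vps29.

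**Figure D5:**
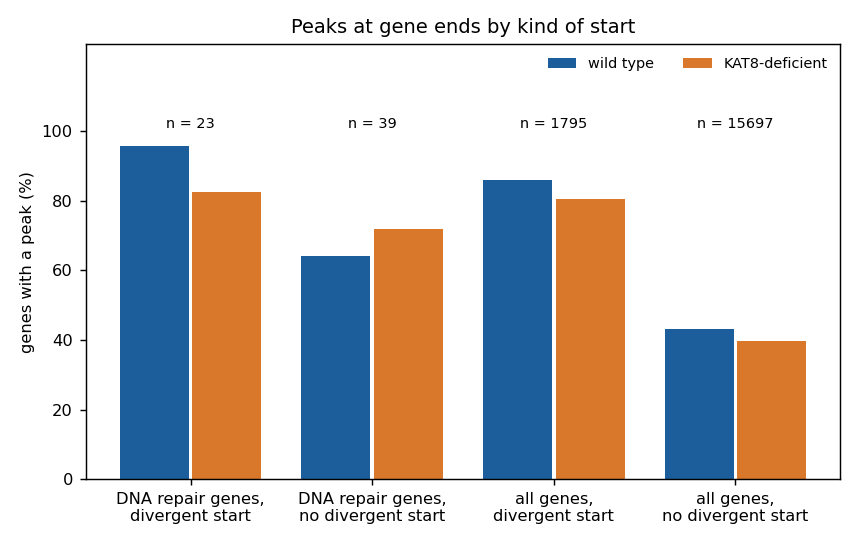
Bars give the percentage of genes with a peak within 1 kb of a gene end, blue for wild type and orange for KAT8-deficient cells, for genes with and without an opposite-strand 5′ end within 1 kb of their own. Among repair genes without a divergent start the KAT8-deficient bar (71.8%) is higher than the wild-type bar (64.1%), and in the other 3 groups the wild-type bar is higher.

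The share marked was also counted apart from neighbours. At the 30 repair genes whose windows overlap that of no other protein-coding gene, 70.0% were marked in wild type and 73.3% in KAT8-deficient cells, where over all such genes 37.4% and 34.8% were. At the 51 genes with shared windows the shares were 80.4% and 72.5%, against 66.7% and 61.2%.

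The promoters of the repair genes were rich in CpG. Over windows of 300 bases (250 before and 50 after each RefSeq start), the median number of CpG dinucleotides was 23 in the 62 repair promoters and 13 in all 17492. At least 10 CpG were found in 85.5% of repair promoters and 57.2% of all. The 8333 genes marked in wild type had a median of 21 and the 9159 unmarked genes a median of 5. Within the repair genes the medians were 24 for the 47 marked in wild type and 20 for the 15 unmarked. The part of CpG content in the share of repair genes marked was not tested.

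Letters of several promoter motifs were also frequent, searched on both strands of the same windows. GCATGCGC, the NRF1 motif, was found in 12 of 62 repair promoters (19.4%, against 3.61% of all), those of Atm, Ercc6, Fanci, Fancm, Lig1, Lig4, Mlh3, Parp2, Parp6, Rpa2, Xpa and Xrcc5. GGCGGGAA, an E2F motif, was found in 8 (12.9%, against 2.94%): Fancb, Fancm, Mdc1, Msh5, Msh6, Rad51ap1, Rad51ap2 and Rad51c. CCAAT stood in 54.8% (39.2% of all), GGGCGG in 58.1% (46.3%) and CCGGAAG in 17.7% (11.9%), while the TATA box letters TATAAA stood in 6.45% (13.3%). Among genes marked in wild type, repair genes and all genes were closer for 3 of these. GGGCGG stood in 59.6% and 64.3%, CCGGAAG in 19.1% and 19.0%, and TATAAA in 8.51% and 6.82%. The gap stayed for CCAAT (61.7% and 40.4%), GCATGCGC (19.1% and 5.70%) and GGCGGGAA (14.9% and 4.40%). GGGCGG and GGCGGGAA can share bases. A match is a description of letters and not of a bound factor.

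Repair genes outside these symbol families were marked at shares close to these. A list of 98 further symbols from the same pathways, translesion synthesis and direct reversal, written from general knowledge, had 96 in the table. The other two were H2afx and Shfm1, the latter an older symbol of Sem1, which is among the 96. The wild-type list marked 75 of the 96 genes (78.1%, against 46.8% of all genes) and the KAT8-deficient list 72 (75.0%, against 43.3%). A peak stood in both lists at 67 (69.8%, against 35.8%) and in neither at 16 (16.7%, against 45.7%). The counts in a single list were 8 in wild type (8.33%, against 11.1%) and 5 in KAT8-deficient cells (5.21%, against 7.52%). At the strict threshold 33 passed in wild type (34.4%, against 12.4%) and 11 in KAT8-deficient cells (11.5%, against 5.99%). Hus1, the remaining clamp subunit, was marked in both lists, with folds of 3.42 and 3.14 (−log10 q 2.17 and 1.93). Polh, a translesion polymerase, had the strongest wild-type peak of them (fold 5.93, −log10 q 13.6), with 4.58 and 7.05 in KAT8-deficient cells. Atrip, the partner of ATR, had 5.61 (12.4) in wild type and 2.94 (1.88) in KAT8-deficient cells. Rnf8, a ubiquitin ligase that acts after MDC1, had 5.63 (12.0) and 3.31 (3.09). Alkbh3, which reverses alkylation directly, was higher in the KAT8-deficient list, with 5.73 (9.32) and 5.76 (10.4). Prkdc, the kinase that Ku recruits in end joining, had 4.83 (8.71) and 4.12 (6.50). Of those marked in a single list, Ube2b was strongest in wild type (3.83, 4.33) and Zswim7 in KAT8-deficient cells (4.06, 4.10).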

How the data were processed

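One H4K16ac CUT&Tag peak list per genotype was used, grouped by the genotype label. The columns the authors deposited are a score, a fold (a ratio to the caller's local background), p-values and q-values as −log10, and the summit offset of each peak. Per the submitters' processing notes, DiffBind, MACS2 2.2.7.1 and Bowtie 0.12.8 were used, without stated roles, on the build mm10. Calling settings, controls and read totals were not analysed here, so depth is unknown. From these lists, peaks were joined to gene ends of the RefSeq table of GRCm38.p6 (at least 1 bp within 1 kb) with Python 3.11.15, NumPy 2.4.6 and pandas 2.3.3. Intervals are 95% Wilson intervals. Starts and strands came from the RefSeq promoter table, which matched 62 genes by gene identifier and chromosome. A strand was used only where all entries of a gene gave the same strand. Divergent starts are annotated 5′ ends on opposite strands within 1 kb of each other, for genes whose strand that table gives. Overlap code was tested on simulated data. With 1 library per genotype no test was made.

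The genes and lists were chosen with earlier results of these data known, and genes were put into pathways by hand from general knowledge. Any of the 81 genes could be named, but the values of some are not reported here, though they stay in the counts. Full values were set for the 8 highest −log10 q in each list, the strongest gene of each pathway, genes marked in a single list and genes at or beside a −log10 q of 5 in 1 list, and for up to 3 further repair genes per pathway. Alternatives varied the window, the threshold, the overlap rule and the genes counted. Marking at 5′ ends and at RefSeq starts was added after seeing the data.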

Additional observations from a re-analysis of the deposited data

How the results depend on the processing

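The number of repair genes marked in both lists was 50 and stayed within 1.5 times of that under 10 of 12 alternatives. These ran from 36 at the 5′ ends of the 62 genes of known strand to 73 with whole genes and 5 kb on both sides. Limiting each list to its strongest 20000 peaks gave 37. The number was 10 when −log10 q had to reach 5, and 17 among the 30 genes whose windows are free of other genes, where fewer genes are counted by construction. The 12 genes marked in wild type alone became 7 with 3 kb windows, 4 with whole genes and 5 kb on both sides, and 4 in free windows. The 9 marked in KAT8-deficient cells alone became 5, 2 and 5 in the same order, and 2 when −log10 q had to reach 5. Windows of 500 bp, q under 0.05, summits in the window, peaks mostly inside the window and plain symbols kept all 3 counts within 1.5 times. So did 5′ ends (36, 8 and 7) and RefSeq starts (41, 8 and 6), both chosen after seeing the data. The strongest peak named for a gene was the same in 84 to 118 of 121 gene and list pairs over 5 alternatives. Depth limits all counts: a gene without a peak may carry acetylation below what the library could show. No paired analysis was possible because each genotype has 1 library and no result comes from a test.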
